A study of Bos grunniens x Bos taurus and Bos grunniens with 6 samples.

Results

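The insulin-like growth factor (IGF) system was described here in testis tissue through its genes for ligands, receptors and binding proteins. Rows were taken from the deposited FPKM table (fragments per length of gene model, scaled to library depth) by the symbols IGF1, IGF2, IGF1R, IGF2R and IGFBP2 to IGFBP7, in any letter case. Of these 10 symbols 9 were matched, each by a single gene ID, among 18918 genes in all, and IGF2 is not analysed here. RNA-seq libraries came from 3 cattle-yak (TES5, TES6 and TES7) and 3 yak (Yak8, Yak9 and Yak10), with 1 animal per library. The cattle-yak were F1 males with a Jersey bull as sire and a Gannan yak as dam, the yak were Gannan males, and every animal was 4 years old. F1 males of this cross are sterile. Cattle-yak testes were removed by castration and yak testes after euthanasia, in separate counties, so breed, place and collection cannot be told apart.

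IGF1 and IGF2 are small secreted hormones that bind the tyrosine kinase receptor IGF1R, while IGF2R carries IGF2 and proteins tagged with mannose 6-phosphate to the lysosome. The binding proteins hold the ligands in extracellular fluid, extend their half-life and limit their access to the receptor until proteases such as PAPPA cut them. In the testis, the somatic cells are known to make IGF ligands and binding proteins, and IGF1R signalling takes part in Sertoli cell proliferation and Leydig cell maturation.

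The FPKM values rested on 11175100 to 11834987 fragments on genes in cattle-yak, and on 12991641 to 13136129 in yak. Each member was covered by 47 to 10009 fragments in a library. Marker lists moved strongly between the groups. All 14 tested Sertoli, 7 Leydig and 9 myoid markers were called higher in cattle-yak, as were 10 of 11 stromal fibroblast markers, whereas 7 of 7 round spermatid and 6 of 7 elongating spermatid markers were called lower. The summed FPKM of the Sertoli list was 3143 to 3411 in cattle-yak against 665 to 720 in yak, with GATA1 listed at 0 in the cattle-yak libraries. It was 10494 to 12492 against 3352 to 4880 for the Leydig list, 628 to 836 against 135 to 167 for the myoid list, and 465 to 585 against 85.5 to 93.5 for the stromal list. For round spermatid markers it was 7.07 to 33.8 against 1302 to 1407, and for elongating spermatid markers 43.4 to 106 against 8254 to 10058. Most of the Leydig sum was the single gene INSL3, with 10027 to 12067 FPKM in cattle-yak and 3282 to 4769 in yak. The endothelial list had 5 higher and 1 lower of 9, the macrophage list 5 and 2 of 8, the spermatogonia list 9 and 0 of 12, and the spermatocyte list 1 and 3 of 11, where 33.4% of all tested genes were called higher and 20.8% lower. With median-of-ratios scaling these counts became 0 and 1 for the endothelial, 3 and 2 for the macrophage, 8 and 0 for the spermatogonia and 0 and 6 for the spermatocyte list. Under that scaling 13 of 14 Sertoli, 6 of 7 Leydig, 7 of 9 myoid and 8 of 11 stromal markers were higher. Of all tested genes 17.7% were higher and 27.7% lower there. In bulk tissue, fewer cells of a type and less RNA per cell cannot be told apart.

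In cattle-yak testis, 7 of the 9 IGF genes rose (IGF1, IGF2R, IGFBP2, IGFBP4, IGFBP5, IGFBP6 and IGFBP7), IGFBP3 fell, and IGF1R did not pass the fold threshold. These directions are those of the FPKM as deposited. When libraries were centred on somatic cell markers, as described further on, IGF1, IGF2R, IGFBP4, IGFBP5 and IGFBP6 had values around 0, most of them negative. The limma test was run on log2 (FPKM + 1) over all 15042 genes with a mean of at least 0.5 FPKM. A gene was called where the p adjusted after Benjamini and Hochberg was below 0.05 and the log2 (foldchange) passed 1 in size. By this rule 33.4% of the tested genes were called higher in cattle-yak, 20.8% lower and 54.2% in either direction, and with median-of-ratios scaling 17.7% were higher and 27.7% lower. All 9 genes had groups without overlapping values, which held for 84.1% of all tested genes. The median log2 (foldchange) was 1.92 over the 9 genes and 0.51 over all tested genes.

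**Figure D1:**
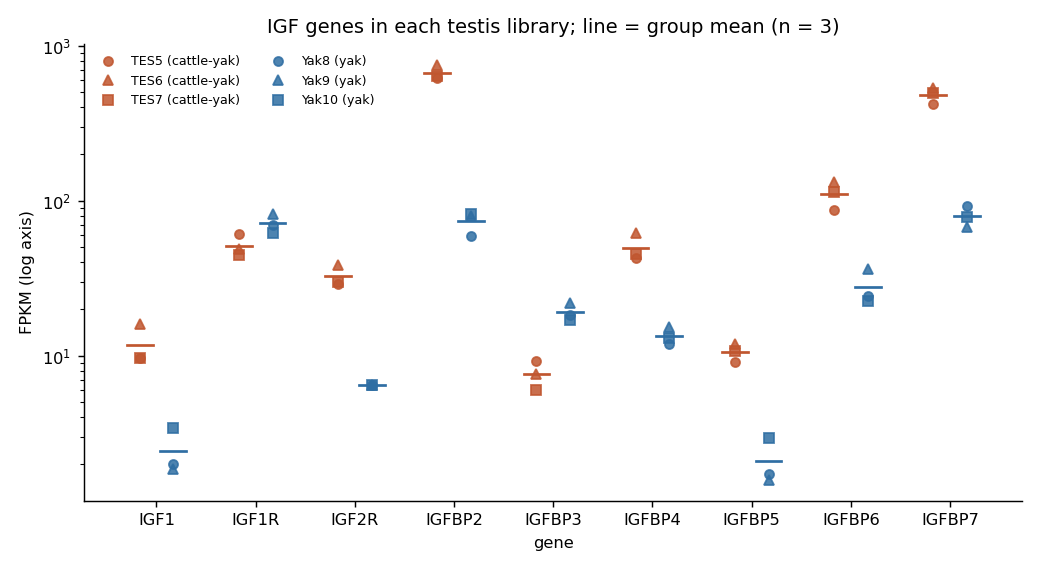
FPKM (log axis) of the 9 IGF genes in each of the 6 libraries, cattle-yak on the left and yak on the right of each gene, with the group mean (n = 3) as a line. IGFBP2 and IGFBP7 stand above 400 FPKM in the cattle-yak libraries and below 100 in the yak libraries, and IGFBP3 and IGF1R are the 2 genes with the yak values on top.

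IGF1 (ENSBGRG00000000290), the ligand that acts downstream of growth hormone as well as locally, had 9.58 FPKM in TES5, 15.9 in TES6 and 9.59 in TES7. In Yak8, Yak9 and Yak10 it had 2.0, 1.85 and 3.41 FPKM, from 51, 47 and 86 fragments. TES6 stood above the other cattle-yak animals and Yak10 above the other yak, but the lowest cattle-yak value was still 2.81 times the highest yak value. The means were 11.7 ± 3.65 and 2.42 ± 0.86 FPKM (SD, n = 3), with a log2 (foldchange) of 1.88 (SE 0.25; limma, adjusted p = 1.3e-04).

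The 2 receptors moved apart. IGF2R (ENSBGRG00000021970), the clearance and sorting receptor, had 29.2, 38.6 and 29.98 FPKM in TES5, TES6 and TES7. In the yak it had 6.45, 6.50 and 6.47 FPKM, the narrowest spread of the 9 genes. The mean was 5.03-fold higher in cattle-yak, with a log2 (foldchange) of 2.16 (SE 0.13; limma, adjusted p = 2.1e-06).

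IGF1R (ENSBGRG00000006060), the signalling receptor, had 60.5, 48.6 and 44.8 FPKM in TES5, TES6 and TES7 and 69.8, 81.9 and 62.0 in Yak8, Yak9 and Yak10. The highest cattle-yak animal, TES5, lay close under the lowest yak animal, Yak10. The means were 51.3 ± 8.20 and 71.2 ± 10.1 FPKM (SD, n = 3), and the log2 (foldchange) of −0.47 had a 95% interval of −0.81 to −0.13 (limma, adjusted p = 0.017), so the gene missed the fold threshold. An adjusted p below 0.05 at any fold was reached by 81.9% of the tested genes. With median-of-ratios scaling, under which the median over all genes was 0.01, the value was −1.08 and passed it. In yak IGF1R was about as abundant as the 2 leading binding proteins, while in cattle-yak these exceeded it several-fold.

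IGFBP2 (ENSBGRG00000002242), a binding protein with a preference for IGF2, showed the largest change of the 9 genes. It had 623, 754 and 634 FPKM in TES5, TES6 and TES7, and 58.9, 79.7 and 81.9 FPKM in Yak8, Yak9 and Yak10. The mean was 9.12-fold higher in cattle-yak, with a log2 (foldchange) of 3.18 (SE 0.15; limma, adjusted p = 5.2e-07), larger than in 99.8% of the tested genes. By FPKM, IGFBP2 ranked 63 to 84 among all genes in the cattle-yak libraries and 1596 to 2216 in the yak libraries.

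IGFBP7 (ENSBGRG00000020216), a secreted relative that binds IGFs only weakly and lies in basement membranes and vessel walls, had 423, 535 and 495 FPKM in TES5, TES6 and TES7. In the yak it had 91.9, 67.3 and 78.8 FPKM, and its log2 (foldchange) of 2.60 (SE 0.14; limma, adjusted p = 9.9e-07) was larger than in 98.6% of the tested genes. It ranked 93 to 147 by FPKM in cattle-yak and 1382 to 1969 in yak.

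IGFBP6 (ENSBGRG00000002440), which prefers IGF2 over IGF1, had 86.6, 131.5 and 113 FPKM in TES5, TES6 and TES7, and 24.2, 36.4 and 22.5 in the yak. IGFBP4 (ENSBGRG00000017437), an inhibitory binding protein and the main substrate of PAPPA, had 42.4, 61.6 and 44.9 FPKM, against 11.9, 15.2 and 13.0. The groups were well apart in each case, with a log2 (foldchange) of 1.97 (adjusted p = 4.0e-05) for IGFBP6 and 1.80 (adjusted p = 1.6e-05) for IGFBP4, both from limma. IGFBP5 (ENSBGRG00000002228), which binds extracellular matrix, was the least abundant of those that rose, with 9.06, 11.8 and 10.7 FPKM against 1.73, 1.57 and 2.95. Yak10 was again the highest yak, as for IGF1, and the log2 (foldchange) was 1.92 (limma, adjusted p = 3.4e-05).

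IGFBP3 (ENSBGRG00000020066), the main carrier of IGFs in blood, where it forms a complex with IGFALS, was the only IGF gene called lower. It had 9.23, 7.59 and 5.98 FPKM in TES5, TES6 and TES7, from 197, 153 and 125 fragments, and 18.2, 21.9 and 17.0 FPKM in Yak8, Yak9 and Yak10. The highest cattle-yak animal lay well under the lowest yak. The means of 7.60 ± 1.63 and 19.1 ± 2.55 FPKM (SD, n = 3) gave a log2 (foldchange) of −1.23 (SE 0.17; limma, adjusted p = 2.0e-04). Over the libraries left out in turn, the value stayed between −1.37 and −1.09.

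All 7 genes that rose had their highest value in TES6. TES6 also had the highest mean log2 (FPKM + 1) among cattle-yak animals in 7 of the 10 marker lists (Sertoli, Leydig, myoid, stromal, endothelial, macrophage and spermatogonia), and TES5 in the other 3, those of spermatocytes and of round and elongating spermatids. IGF1R and IGFBP3, the 2 genes with lower values in cattle-yak, were highest in TES5 among the cattle-yak animals. The part of the cell types in these differences between animals was not tested.

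Ordered by mean FPKM in cattle-yak, the genes ran IGFBP2, IGFBP7, IGFBP6, IGF1R, IGFBP4, IGF2R, IGF1, IGFBP5 and IGFBP3. The animals' values overlapped between IGF1R and IGFBP4, between IGF1 and IGFBP5, and between IGFBP5 and IGFBP3. In yak the order was IGFBP7, IGFBP2, IGF1R, IGFBP6, IGFBP3, IGFBP4, IGF2R, IGF1 and IGFBP5, with overlapping values among the first 3 genes and between IGF1 and IGFBP5. IGFBP3 thus stood above IGFBP4, IGF2R, IGF1 and IGFBP5 in yak and below all of them in cattle-yak.

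To set the genes against the somatic cells, the log2 values of each library were centred on the mean of its Sertoli, Leydig or myoid markers. On that scale the median of all tested genes was −1.70, −1.69 and −1.39, and 0.213%, 0.226% and 0.572% of them were called higher. IGFBP2 kept a positive value, with 0.97 against the Sertoli, 0.98 against the Leydig and 1.28 against the myoid markers, the last one past the fold threshold. IGFBP7 had 0.38, 0.40 and 0.70, which were not past it. IGF1, IGFBP4, IGFBP5, IGFBP6 and IGF2R lay between −0.41 and 0.26 and were not called in any of the 3 centrings. Each centring shifts the log2 (foldchange) of every gene by the same amount, the markers' own rise. Genes already lower as deposited, IGFBP3 and IGF1R, were thus lower by construction. IGFBP3 had −3.45, −3.43 and −3.13, and IGF1R −2.68, −2.67 and −2.37. Both were called lower in each, where 73.2%, 72.9% and 63.2% of all tested genes were.

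**Figure D2:**
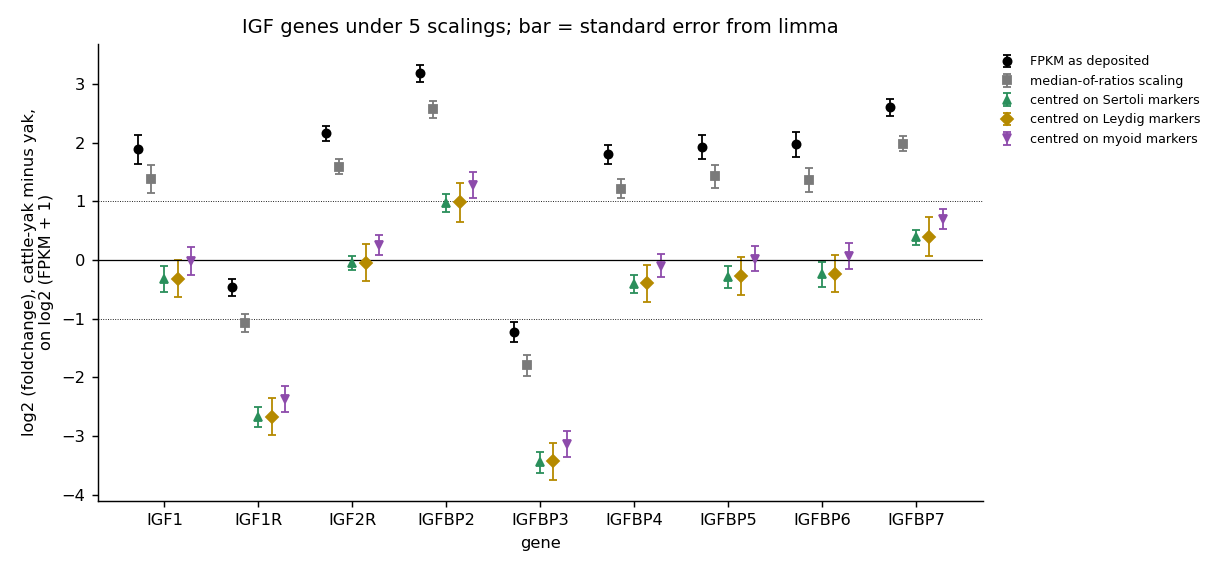
The log2 (foldchange) of the 9 IGF genes (cattle-yak minus yak, on log2 (FPKM + 1)) under 5 scalings, with the standard error from limma as bars and dotted lines at the fold threshold. Most of the genes that rose as deposited lie near 0 once centred on somatic markers, IGFBP2 stays near 1, and IGF1R and IGFBP3 drop below −2. Each centring shifts all genes by the same amount.

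Ratios between 2 genes of the same library do not depend on how libraries are scaled. The FPKM of IGF1 was 0.158, 0.328 and 0.214 times that of its receptor IGF1R in TES5, TES6 and TES7, and 0.0286, 0.0226 and 0.055 times in Yak8, Yak9 and Yak10. The log2 ratio was higher in cattle-yak by 2.76, without overlap (exact permutation test, two-sided, p = 0.1, adjusted p = 0.1 over the 2 ratios tested). This is the smallest p that 3 animals against 3 allow. The ratio of IGFBP3 to IGFBP5 was 1.02, 0.641 and 0.559 in cattle-yak and 10.6, 13.9 and 5.77 in yak, a log2 difference of −3.73 (exact permutation test, two-sided, p = 0.1, adjusted p = 0.1). Both ratios were planned, but not blind to these data. The study had already reported IGF1 and IGFBP5 as upregulated in cattle-yak, with IGFBP3 as an exception.

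The other ratios were chosen after their values were seen and were not tested. IGF1R stood at 8.56, 5.34 and 5.20 times the FPKM of INSR, the insulin receptor with which it can form hybrid receptors, in cattle-yak, and at 47.0, 62.7 and 55.6 times in yak. IGF1R to IGF2R was 2.08, 1.26 and 1.496 in cattle-yak against 10.8, 12.6 and 9.57 in yak. IGFBP2 to IGFBP7 was 1.47, 1.41 and 1.28 in cattle-yak, above the 0.641, 1.18 and 1.04 of the yak.

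**Figure D3:**
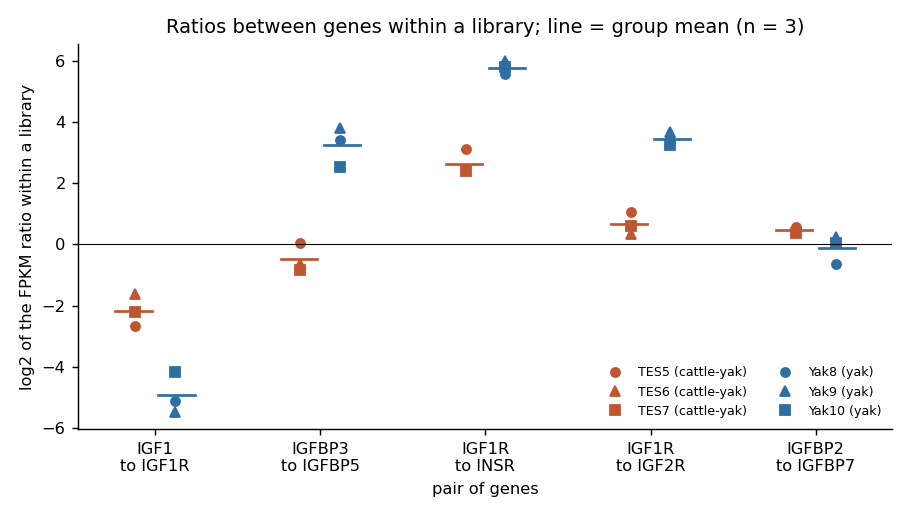
Log2 of the FPKM ratio of 5 pairs of genes within each library, with the group mean (n = 3) as a line. The cattle-yak and yak libraries do not overlap in any pair, and the gap is smallest for IGFBP2 to IGFBP7. IGF1R to INSR, IGF1R to IGF2R and IGFBP2 to IGFBP7 were chosen after their values were seen. Taken singly, 84.1% of all tested genes had groups without overlap.

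The 6 binding proteins together had 1193 to 1501 FPKM in cattle-yak against 207 to 222 in yak. Of the library's FPKM this was 0.225% ± 0.03 in cattle-yak against 0.0358% ± 0.0013 in yak (SD, n = 3). Their make-up also differed. IGFBP2 held 52.2%, 50.2% and 48.6% of the IGFBP FPKM in TES5, TES6 and TES7, and 28.5%, 35.9% and 37.9% in Yak8, Yak9 and Yak10. IGFBP3 held 0.459% to 0.774% in cattle-yak against 7.88% to 9.87% in yak, while IGFBP7 held 35.5% to 37.9% and 30.3% to 44.4%, so that the yak range enclosed that of cattle-yak. IGFBP2 and IGFBP7 together made up 86.7% ± 0.91 in cattle-yak against 71.1% ± 4.34 in yak (SD, n = 3). Relative to IGF1, the summed binding proteins were 125, 94.4 and 136 times as abundant in cattle-yak and 103, 120 and 63.4 times in yak, with overlapping groups.

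**Figure D4:**
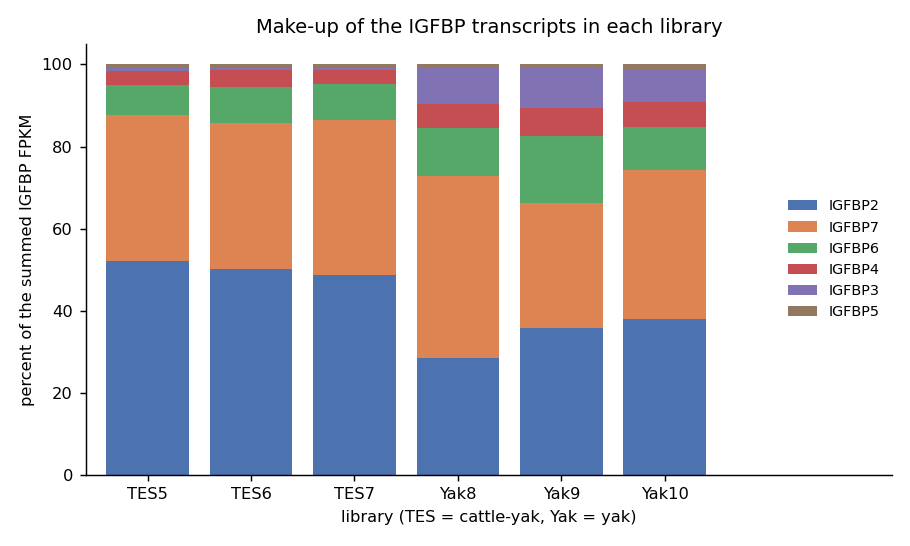
Share of each of the 6 binding proteins in the summed IGFBP FPKM of each library, in percent. IGFBP2 takes 48.6% to 52.2% in cattle-yak against 28.5% to 37.9% in yak, and the band of IGFBP3, 7.88% to 9.87% in yak, is under 1% in cattle-yak.

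The genes around the IGF system are given by lists, whose counts are to be read against all tested genes. Of these 33.4% were called higher and 20.8% lower as deposited, 17.7% and 27.7% with median-of-ratios scaling, and 0.213% and 73.2% with Sertoli centring. Among other IGF and insulin family genes, 2 of 7 tested rose and none fell, INSR and IGF2BP1, while with Sertoli centring 0 were higher and 5 lower, shares near those of all genes. INSR had 8.26 ± 1.06 FPKM against 1.30 ± 0.19 in the yak libraries (SD, n = 3), a log2 (foldchange) of 2.0 (limma, adjusted p = 6.4e-06), which turned to −0.21 and −0.20 when centred on Sertoli and Leydig markers. IGF2BP1, which binds IGF2 mRNA and not the hormone, had 1.28 as deposited, 0.77 with median-of-ratios scaling and negative values in the 3 centrings. IGFALS, the partner of IGFBP3 in the circulating complex, had 1.37 ± 0.29 and 0.781 ± 0.31 FPKM (SD, n = 3) and was not called (limma, adjusted p = 0.065). IGFBP1, a binding protein made mainly by the liver, had 0 fragments in each cattle-yak library and 1, 0 and 2 in Yak8, Yak9 and Yak10, so that no difference was detectable at this depth.

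The proteases that cut binding proteins and their inhibitors rose in all 10 tested genes, and in 5 of 10 with median-of-ratios scaling, against 17.7% of all genes called higher there. With Sertoli centring 0 of 10 were higher and 2 lower, and with myoid centring 1 and 0. STC1, a stanniocalcin that inhibits PAPPA, had the largest change, with 27.0 ± 6.67 FPKM against 2.79 ± 1.63 in the yak libraries (SD, n = 3) and a log2 (foldchange) of 2.94 (limma, adjusted p = 3.9e-05). PAPPA itself, named here after its values were seen, had 3.26, 1.67 and 0.949 FPKM in TES5, TES6 and TES7 and 0.231, 0.244 and 0.356 in the yak. Each cattle-yak value lay above each yak value, with TES5 far above the others. The log2 (foldchange) of PAPPA was 1.14 (limma, adjusted p = 4.5e-03) and depended on the scale for this low gene, with 2.30 at a pseudocount of 0.1 and 2.65 with voom on fragments. It was 1.403 without TES7, and 0.84 without TES5 (limma, adjusted p = 6.1e-03), under the fold threshold. With median-of-ratios scaling it was 0.88, and it lay between −1.07 and −0.76 in the 3 centrings. PAPPA2, its paralog, lay under the minimum for the test, with 4, 3 and 1 fragments in TES5, TES6 and TES7 and 48, 47 and 24 in Yak8, Yak9 and Yak10.

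Of 5 genes for receptors of binding proteins, LRP1 and SCARA5 rose, whereas with Sertoli centring 0 were higher and 3 lower. These shares were near those of all tested genes, 33.4% higher as deposited and 73.2% lower with Sertoli centring. SCARA5, a scavenger receptor, had a log2 (foldchange) of 1.397 as deposited and 0.90, below the threshold, with median-of-ratios scaling. LRP1, a large endocytic receptor, had a log2 (foldchange) of 1.98, which was −0.23, −0.22 and 0.08 in the 3 centrings. TMEM219, the death receptor described for IGFBP3, had 66.1 ± 10.01 FPKM against 61.1 ± 4.11 in the yak libraries (SD, n = 3), within the spread between animals (limma, adjusted p = 0.45).

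Inside the cell, 10 of 14 docking proteins and adaptors of IGF1R rose and none fell, with 5 of 14 higher under median-of-ratios scaling and 0 higher and 6 lower with Sertoli centring. Among those that rose, IRS1 and CRK stand on several gene IDs and are uncertain. The largest change was that of GRB14, an adaptor that inhibits insulin and IGF1 receptor kinases, with 43.9 ± 11.2 FPKM against 5.31 ± 1.22 in the yak libraries (SD, n = 3). Its log2 (foldchange) was 2.82 (limma, adjusted p = 5.1e-06), and it remained positive in the centrings, at 0.61 to 0.92. In the PI3K-AKT-mTOR chain 10 of 24 genes rose and 3 fell, 7 and 5 with median-of-ratios scaling, and 0 and 15 with Sertoli centring. The median of the chain, 0.51, was that of all tested genes, of which 33.4% were called higher and 20.8% lower as deposited. FOXO1, a transcription factor that AKT keeps out of the nucleus, had the largest rise, 2.30 (limma, adjusted p = 9.7e-07), and 0.09 to 0.40 in the centrings. Among the genes that fell were PDPK1, the kinase that activates AKT, with −1.60, and MTOR, the kinase of the growth complexes, with −1.16. Both were also called lower under median-of-ratios scaling, where 27.7% of all tested genes were. Centring subtracts the markers' own rise, so a gene already lower stays lower by construction. Both were lower in each centring, where 63.2% to 73.2% of all tested genes were.

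The growth hormone axis had 1 gene higher of 8, where 33.4% of all tested genes were higher. This count was 5 with a pseudocount of 0.1 or with voom, and 0 with median-of-ratios scaling. With Sertoli centring 0 were higher and 7 lower, where 73.2% of all tested genes were lower. Of all 15042 tested genes, 5924 were higher with a pseudocount of 0.1 and 5961 with voom, against 5023 as deposited. The gene called as deposited was STAT5A, with 1.38, which was 0.87 with median-of-ratios scaling and between −0.83 and −0.52 in the centrings. The mannose 6-phosphate sorting list, which shares its cargo with IGF2R, had 4 of 11 genes higher (NAGPA, M6PR, AP1G1 and GNPTG), but 1 higher and 2 lower with median-of-ratios scaling and 0 and 9 with Sertoli centring. As deposited, this share was near the 33.4% of all tested genes. GNPTG stands on 2 gene IDs and is uncertain. M6PR, the other mannose 6-phosphate receptor, had 179 ± 19.4 FPKM against 82.5 ± 4.35 in the yak libraries (SD, n = 3), a log2 (foldchange) of 1.11 against 2.16 for IGF2R. It was 0.49 with median-of-ratios scaling and between −1.11 and −0.80 in the centrings. The largest change in this list was that of NAGPA, which uncovers the tag, with 1.53, and with −0.68, −0.67 and −0.37 in the centrings. Of 10 tested imprinted growth genes 4 rose (PEG10, NDN, PLAGL1 and SGCE), also 4 with median-of-ratios scaling, while 0 were higher and 6 lower with Sertoli centring. PEG10, a gene of retroviral origin, led them at 2.44 (limma, adjusted p = 2.6e-07).

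**Figure D5:**
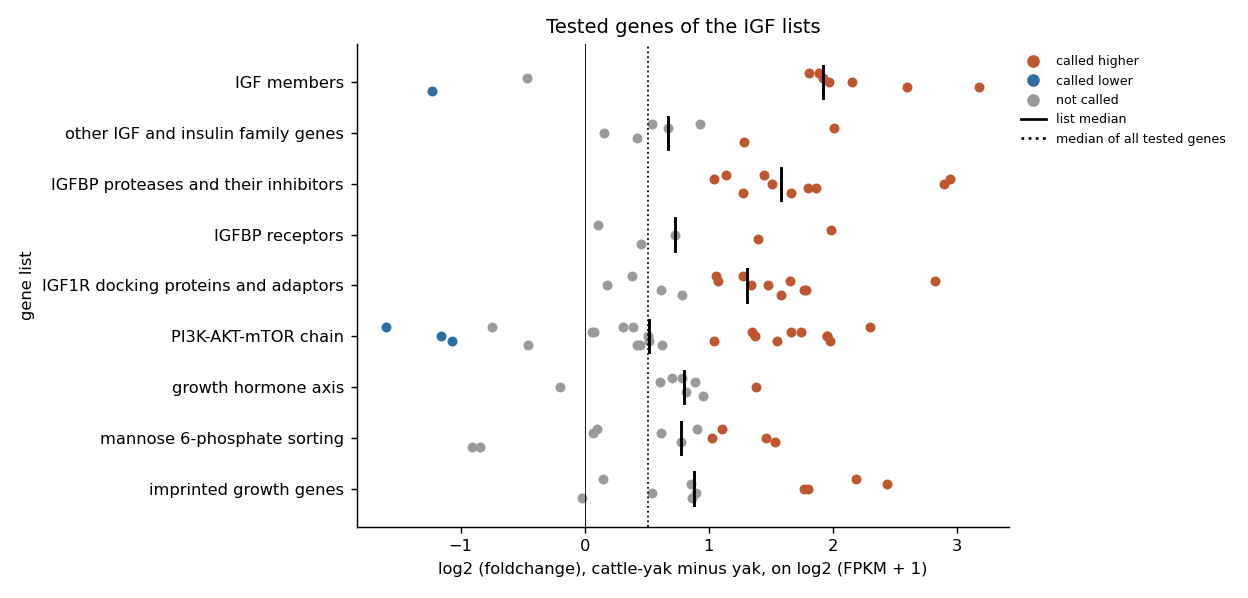
The log2 (foldchange) of every tested gene in the IGF lists (cattle-yak minus yak, on log2 (FPKM + 1)), coloured by the limma call, with list medians as bars and the median of all tested genes (0.51) as a dotted line. The proteases lie wholly to the right of 1, and the PI3K-AKT-mTOR chain has its median at the dotted line.

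By the deposited GO annotation, 44 genes carried a term on insulin-like growth factor, 8 of them members, since IGF1R had no GO term in the table. Of the 36 others 30 were tested, with 13 higher and 1 lower as deposited, where 33.4% of all tested genes were higher and 20.8% lower. The 3 genes with the profile most like IGF1 over the 6 animals, by root-mean-square distance of the centred log2 values, were ZNF593 (0.104), OLFML3 (0.106) and the most abundant of 9 genes named PRAME (0.111), which is uncertain. For IGFBP3 they were METTL22 (0.0554), the most abundant of 3 genes named ANKRD26 (0.0613), also uncertain, and STIM1 (0.0668). ANKRD26 lay near the floor, with 0.343, 0.121 and 0 FPKM in TES5, TES6 and TES7 and 1.55, 1.86 and 1.46 in Yak8, Yak9 and Yak10. At such levels log2 (FPKM + 1) understates changes, so its likeness to IGFBP3 holds on that scale only.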

How the data were processed

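As the study's methods describe, the authors trimmed paired-end reads of stranded mRNA libraries with Trimmomatic, mapped both groups with HISAT2 to the yak genome LU_Bosgru_v3.0 and calculated FPKM with Cufflinks. Reads from cattle alleles of the hybrids were thus mapped to a yak reference. The deposited FPKM values are scaled to the depth of each library and not otherwise between libraries. Their steps gave whole fragments for 17973 genes (100% of values within 0.03 fragments), which supplied the depth. Genes with a mean of at least 0.5 FPKM entered limma (version 3.58.1, R 4.3.3, variance trend, two-sided) as log2 (FPKM + 1). This scale understates changes of low genes. The fit was tried on simulated data in which few genes changed, so that trial does not cover a shift of most genes between groups. Groups came from the sample descriptions. For symbols on several genes, such as CLU, CYP17A1, IRS1 and CRK, lists used the most abundant, which leaves these genes uncertain. Genes named were every IGF gene and the largest called change of each list in each direction, and any others were chosen after their values were seen. A gene of the PI3K-AKT-mTOR list is counted but not reported here by name. The members and lists were chosen with earlier results of these data known. An IGF2 to IGF2R ratio had been planned and was not run. Genome positions and sequences were not used here. Alternatives were a pseudocount of 0.1, other filters, scalings and centrings, no trend, no fold threshold, voom in limma on the fragments, and leaving out each animal. Python 3.11.15, numpy 2.4.6, pandas 2.3.3, scipy 1.17.1 and matplotlib 3.10.9 were used.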

Additional observations from a re-analysis of the deposited data

How the results depend on the processing

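The 7 higher and 1 lower calls among the IGF genes remained under the other pseudocount, filters, TPM scaling, variance model and voom on fragments, and without any of the 6 animals. The count of higher genes became 0 with Sertoli, 0 with Leydig and 1 with myoid centring; centring subtracts the markers' own change by construction. The count of lower genes became 2 with median-of-ratios scaling, in the 3 centrings and without a fold threshold, with IGF1R as the added gene each time. Over all tested genes, 5023 were called higher and 3136 lower, against 2655 and 4173 with median-of-ratios scaling, 32 and 11014 with Sertoli, 34 and 10962 with Leydig and 86 and 9500 with myoid centring, and 7916 and 4399 without a fold threshold. With a pseudocount of 0.1 the higher count over all tested genes was 5924, and with voom 5961. In the growth hormone axis 1 gene was higher, but 5 with a pseudocount of 0.1 and with voom, 7 without a fold threshold, 0 with median-of-ratios scaling, and 2 without TES6, Yak8 or Yak9.

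Centred on the Sertoli, Leydig and myoid markers, the log2 (foldchange) of IGF1 was −0.33, −0.32 and −0.018 and that of IGFBP4 was −0.41, −0.40 and −0.10. With Sertoli and Leydig centring it was −0.057 and −0.044 for IGF2R, −0.29 and −0.28 for IGFBP5, and −0.25 and −0.23 for IGFBP6. For the list genes the same 3 centrings gave −0.93, −0.92 and −0.62 for IGF2BP1, −1.07, −1.06 and −0.76 for PAPPA, −0.82, −0.80 and −0.51 for SCARA5, −0.83, −0.82 and −0.52 for STAT5A, −0.68, −0.67 and −0.37 for NAGPA, and −1.11, −1.10 and −0.80 for M6PR. INSR had −0.21 and −0.20 and LRP1 −0.23 and −0.22 with Sertoli and Leydig centring. The list genes and lists were run under these settings after the data were seen.

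With each animal left out, the difference in log2 ratio lay between 2.48 and 3.13 for IGF1 to IGF1R and between −4.09 and −3.45 for IGFBP3 to IGFBP5, and a pseudocount of 1 gave 2.35 and −3.15. With 3 animals per group these tests cannot pass 0.05. The cattle-yak and yak were different animals from separate counties with no pairing given, so no paired analysis was run. IGF1 and IGFBP5, with 47 to 93 fragments in a yak library, had the fewest fragments of the IGF genes in yak. The largest standard errors from limma were 0.25 for IGF1, 0.21 for IGFBP6 and 0.20 for IGFBP5.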
